A study of Mus musculus with 12 samples.

Results

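Killer lectin-like receptors are membrane proteins that natural killer (NK) cells, and subsets of T cells, use to sense MHC class I and related molecules on other cells. The Ly49 receptors, encoded by the *Klra* genes, bind MHC class I directly. Most of them carry an inhibitory motif in the cytoplasmic tail, and a few instead signal through the adaptor DAP12. CD94 forms heterodimers with NKG2A, which inhibits, or NKG2C, which activates, and both dimers bind the non-classical molecule Qa-1, whereas NKG2D binds ligands that stressed cells display. On T cells these receptors are best known from CD8+ cells with memory or innate-like features. The genes described here are *Klra6*, *Klra7*, *Klra8*, *Klra13-ps*, *Klrd1*, *Klrk1*, *Klrc1*, *Klrc2*, *Klrb1c* and *Klrg1*, which are 10 of the 49585 genes in the count table. They were chosen by symbol among the receptor genes of chromosome 6, and partly for differences in *Klra* counts seen in these same samples. The 4 *Klra* genes are therefore given as levels and differences with no test, and the other 6 were tested among all 13118 genes that passed a filter on low counts.

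RNA-seq covered 12 samples of lymph node T cells from male mice aged 6 to 10 weeks, 3 in each of 4 groups. B6 CD4+ and B6 CD8+ cells came from C57BL/6 mice. CD8.1 and CD8.2 cells came from CD8 Dual mice, named 8in4 in the labels. On both chromosomes these mice have a *Cd4* locus that yields CD8 (the α.1 form, with CD8β) and a normal *Cd8* locus, the source of the α.2 form. The group names tell which form the cells display. The labels give a sort that includes TCRβ (antibody H57). The study's methods describe the sorted cells as naive, with TCRβ and CD62L present and CD44 absent. A gate on TCRβ would leave out NK, B, myeloid and γδ T cells, and a gate on absence of CD44 would leave out memory cells that carry it. RNA came from pooled sorted cells, and the labels do not say whether the 3 samples of a group are separate animals, so each p-value measures the spread between these samples.

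Total counts were 21201337, 22750616 and 22410845 in the B6 CD4+ samples and 24418062, 27637080 and 20386247 in the B6 CD8+ samples, in the order of replicates 1 to 3. They were 20195646, 23041779 and 21676556 in the CD8.1 samples and 23466467, 18667474 and 37110502 in the CD8.2 samples. Levels are given as CPM, counts scaled to a common library size after TMM normalization, and group values are means ± SD of 3 samples. A count of 0 allows up to 3 counts in a library, which is 0.0874 to 0.167 CPM in these samples. Such floors, and the intervals given for ratios and shares, cover counting error only.

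A pair of libraries stood apart from the others of their groups. CD8.1 replicate 1 differed from the other CD8.1 samples by a chi-square per gene of 28.9 and 30.4 against counting error, while those other samples differed by 8.21. CD8.2 replicate 3 differed from the other CD8.2 samples by 79.5 and 52.9, while those differed by 12.9. It was the deepest library, and its most abundant gene was Gm42418 with 3.14% of counts, whereas *Eef1a1*, with 2.06% to 2.72%, led the other 11. For the chosen receptor genes, and for the numbers of tested genes and receptor genes called, results that change without either library are given with and without it. Whether results for other genes and for the gene lists below change without either library was not tested.

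The coreceptor genes matched the labels. *Cd4* measured 968 ± 52.9 CPM in B6 CD4+ cells, 0.244 ± 0.120 in B6 CD8+ cells, 49.7 ± 2.26 in CD8.1 cells and 1.47 ± 0.340 in CD8.2 cells. *Cd8a* measured 1.17 ± 0.428, 1422 ± 48.8, 192 ± 11.5 and 1459 ± 30.4 CPM in the same order. *Cd3e*, which encodes a chain of the CD3 complex of T cells, measured 309 ± 22.9 CPM in CD8.2, 327 ± 50.8 in CD8.1, 343 ± 12.4 in B6 CD8+ and 317 ± 7.05 in B6 CD4+ cells.

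On the chromosome, 9 of the 10 genes lie in the NK gene complex of the distal part of chromosome 6, and the remaining gene, *Klrg1*, lies on the other side of *Cd4*. All positions are in GRCm38. *Klrg1* (ENSMUSG00000030114.8) spans 122270596 to 122282882, which is 2.58 Mb from *Cd4*. *Klrb1c* (ENSMUSG00000030325.16) spans 128778485 to 128789215, and *Klrd1* (ENSMUSG00000030165.16) spans 129591782 to 129598775. Next to *Klrd1* lie the NKG2 genes. *Klrk1* (ENSMUSG00000030149.15) spans 129610323 to 129623864, *Klrc2* (ENSMUSG00000052736.15) 129647496 to 129660689, and *Klrc1* (ENSMUSG00000030167.15) 129666015 to 129678973. The Ly49 genes follow. *Klra6* (ENSMUSG00000061769.2) spans 130013033 to 130026954, and *Klra8* (ENSMUSG00000089727.2) spans 130115226 to 130129898. *Klra7* (ENSMUSG00000067599.13) spans 130218605 to 130233322, and *Klra13-ps* (ENSMUSG00000030178.15), annotated as a transcribed unprocessed pseudogene, spans 130290878 to 130306428, which is 5.40 Mb from *Cd4*. All except *Klrd1* are on the minus strand. The region therefore includes the locus that was altered in CD8 Dual mice. Among 95 other tested genes within 5 Mb of *Cd4*, leaving out *Klr* genes, 7.37% were called between CD8.2 and B6 CD8+ cells and 13.7% between CD8.1 and B6 CD4+ cells, beside 7.94% and 12.8% of all tested genes. The part of that locus in the receptors' levels cannot be told apart from the strain.

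**Figure D1:**
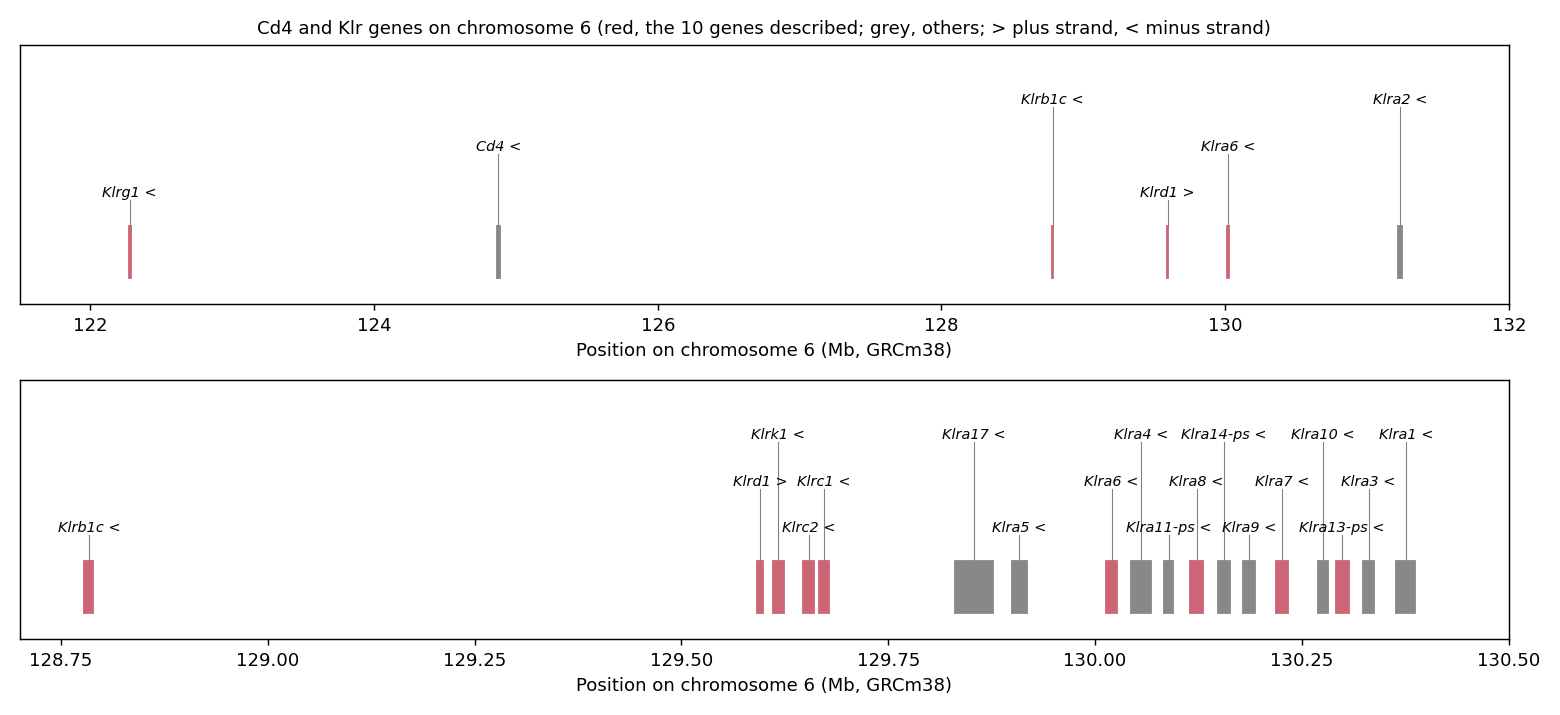
Positions of *Cd4* and of the *Klr* genes on mouse chromosome 6 (GRCm38, Mb), with a closer view of the cluster in the lower panel; red bars are the 10 genes described and grey bars are other genes. Of the 10, *Klrg1* alone lies on the low-coordinate side of *Cd4*.

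Ly49 genes are close copies of each other, so their counts rest on reads that can be told apart. Of the stretches of their transcripts that are as long as a read, *Klra6*, *Klra7* and *Klra13-ps* shared 0% with any other annotated gene, and *Klra8* shared 10.6% with *Klra14-ps*. At 31 bases the shared part was 15.6% for *Klra6*, 24.7% for *Klra7*, 33.5% for *Klra13-ps* and 55.0% for *Klra8*. *Klrc1* shared 7.03% of its read-length stretches with *Klrc2*, and 53.1% of its stretches of 31 bases with other genes. *Klrc2* shared 2.37% of its read-length stretches with *Klrc1* and 3.81% with any gene, and 21.6% of its stretches of 31 bases with other genes. *Klrb1c* shared 9.62%, with the overlapping gene Gm44511, and 21.2% at 31 bases. *Klrd1*, *Klrk1* and *Klrg1* shared 0% of their read-length stretches. How reads that fit several genes were counted is not given in the sources used here.

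CD94, the chain common to the NKG2A and NKG2C dimers, is encoded by *Klrd1*, which was by far the most abundant of the 10 genes in the cytotoxic groups. It measured 139, 158 and 178 CPM in the B6 CD8+ samples and 117, 119.9 and 119 CPM in the CD8.2 samples. It measured 10.7, 10.6 and 10.4 CPM in the B6 CD4+ samples and 9.54, 5.83 and 4.79 CPM in the CD8.1 samples. No groups overlapped, with B6 CD8+ highest, then CD8.2, B6 CD4+ and CD8.1. Per kilobase of exon the *Klrd1* level was 124 CPM in B6 CD8+ cells and 92.7 CPM in CD8.2 cells. The next level per kilobase among the 10 genes was that of *Klra6*, 7.08 CPM, in B6 CD8+ cells, and that of *Klra13-ps*, 0.992 CPM, in CD8.2 cells.

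*Klrc1* encodes the inhibitory partner NKG2A. It measured 7.57, 8.14 and 7.26 CPM in the B6 CD8+ samples and 1.96, 1.22 and 1.43 CPM in the CD8.2 samples. In the B6 CD4+ samples it measured 0.0454, 0.0431 and 0.128 CPM, and in the CD8.1 samples 0.0954, 0.309 and 0.142 CPM. The cytotoxic groups were separate from each other and above both helper groups, which overlapped at 1 to 7 counts per library. *Klrc2*, which encodes the activating partner NKG2C, measured 0.737, 1.89 and 0.721 CPM in the B6 CD8+ samples. In the other 9 samples it had 0 or 1 count, so B6 CD8+ cells were the only group in which it was above the floor.

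Because NKG2A reaches the surface with CD94, the *Klrc1* level was also expressed against that of *Klrd1*, each per kilobase. It was 3.51%, 3.32% and 2.63% of the *Klrd1* level in the B6 CD8+ samples and 1.08%, 0.658% and 0.775% in the CD8.2 samples. All 3 CD8.2 samples were below all 3 B6 CD8+ samples, with means of 0.837 ± 0.217% and 3.16 ± 0.463%. The CD8.1 samples, with few counts, spread over 0.646%, 3.42% and 1.92% and overlapped B6 CD8+ cells. The B6 CD4+ samples, also with few counts, were at 0.275%, 0.264% and 0.791% and overlapped CD8.2 cells.

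*Klrk1* encodes NKG2D, the receptor for stress-induced ligands. It measured 3.97, 5.56 and 4.04 CPM in the B6 CD8+ samples and 1.66, 1.11 and 1.63 CPM in the CD8.2 samples. It measured 0, 0.129 and 0.510 CPM in the B6 CD4+ samples and 0.477, 0.177 and 0.332 CPM in the CD8.1 samples. The order was that of *Klrc1*, with B6 CD8+ highest, CD8.2 between, and overlapping low levels in both helper groups.

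Among the Ly49 genes, *Klra6* (Ly49F) was the most abundant in B6 CD8+ cells. It measured 7.16, 7.45 and 9.09 CPM in the B6 CD8+ samples and 1.19, 0.500 and 0.758 CPM in the CD8.2 samples. In all 6 samples of B6 CD4+ and CD8.1 cells it had 0 counts. *Klra6* reads were thus found only in the cytotoxic groups, and all B6 CD8+ samples lay above all CD8.2 samples.

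*Klra7* encodes the inhibitory receptor Ly49G. It measured 2.66, 3.78 and 3.94 CPM in the B6 CD8+ samples and 0.511, 0.389 and 0.845 CPM in the CD8.2 samples. It measured 0, 0.129 and 0.0425 CPM in the B6 CD4+ samples and 0, 0.177 and 0.0949 CPM in the CD8.1 samples. *Klra7* was separate between the cytotoxic groups, and the helper groups overlapped near the floor.

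*Klra13-ps* is the pseudogene of the set. It measured 3.93, 4.94 and 5.96 CPM in the B6 CD8+ samples and 0.766, 1.17 and 1.17 CPM in the CD8.2 samples. It had 2 counts in B6 CD4+ replicate 3 and 0 in the other samples of B6 CD4+ and CD8.1 cells. *Klra8* encodes Ly49H, an activating receptor that signals through DAP12. It measured 1.06, 1.38 and 2.02 CPM in the B6 CD8+ samples and 1.11, 1.22 and 1.11 CPM in the CD8.2 samples. It measured 0, 0.172 and 0.0425 CPM in the B6 CD4+ samples and had 0 counts in the CD8.1 samples. *Klra8* differed in this from the other 3 Ly49 genes: its B6 CD8+ and CD8.2 samples overlapped.

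*Klrb1c* encodes NK1.1, the marker by which NK cells of this strain are usually recognised. It measured 1.35, 1.85 and 2.50 CPM in the B6 CD8+ samples and 1.45, 1.94 and 1.11 CPM in the CD8.2 samples. It measured 0.182, 0.517 and 0.255 CPM in the B6 CD4+ samples and 0.334, 1.02 and 0.285 CPM in the CD8.1 samples. The cytotoxic groups overlapped, and so did the helper groups, with CD8.1 replicate 2 the highest helper sample.

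*Klrg1* encodes an inhibitory receptor for cadherins that is known on effector T cells and on a subset of regulatory T cells. It was the only one of the 10 genes with its highest mean in a helper group. It measured 10.8, 11.8 and 6.74 CPM in the CD8.1 samples and 1.86, 2.02 and 2.81 CPM in the B6 CD4+ samples. It measured 0.0818, 0.0727 and 0 CPM in the B6 CD8+ samples and 0.213, 0 and 0.204 CPM in the CD8.2 samples. CD8.1 samples were all above B6 CD4+ samples, and both cytotoxic groups were near the floor and overlapped. Per kilobase, *Klrg1* at 6.92 CPM was above *Klrd1* at 5.25 CPM in CD8.1 cells, and below it in B6 CD4+ cells, at 1.58 against 8.23 CPM.

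**Figure D2:**
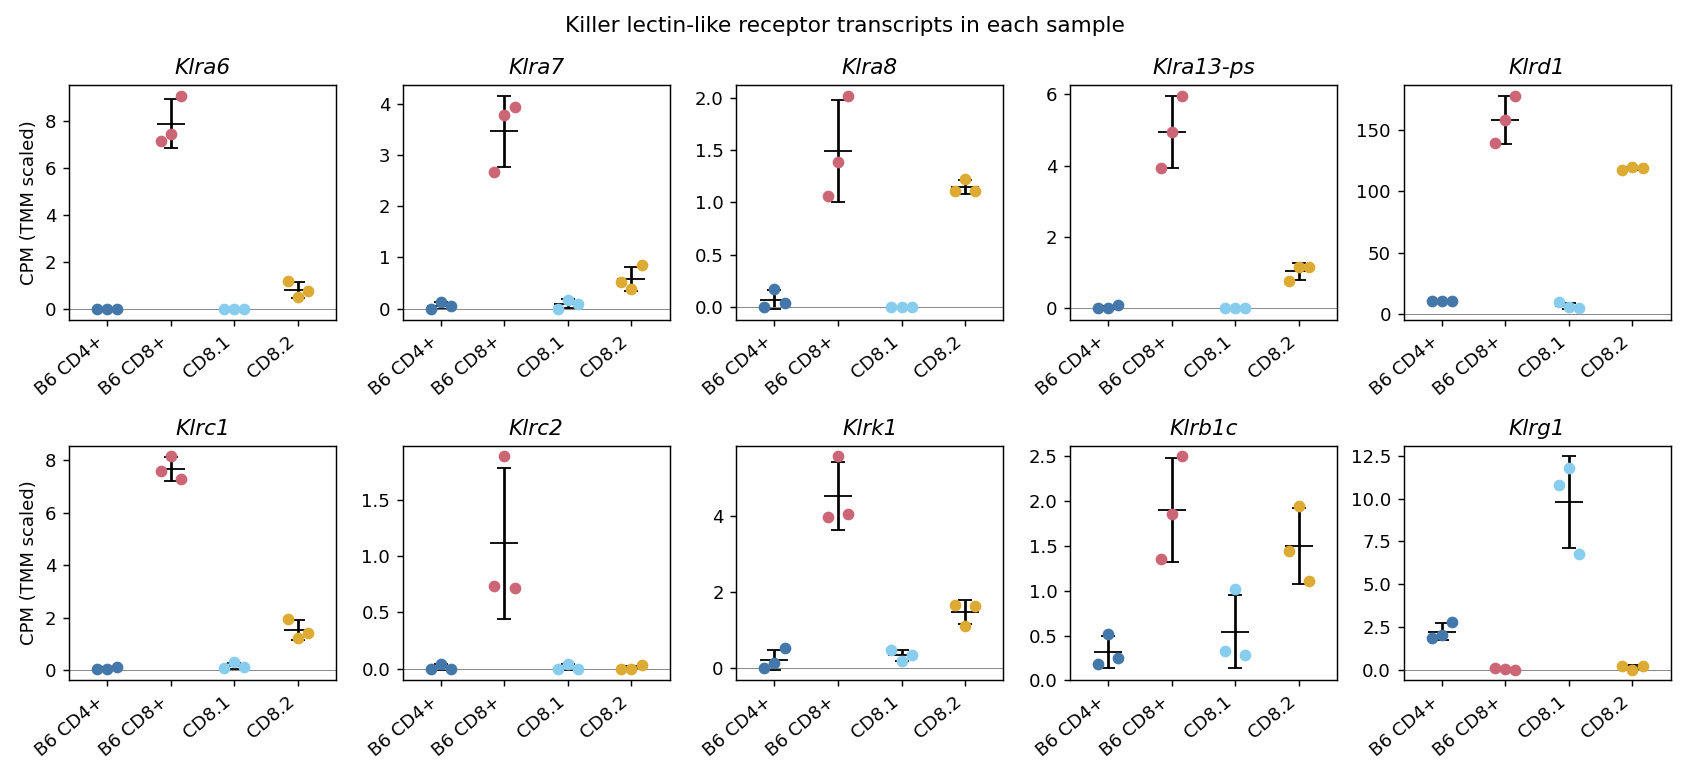
Level of each of the 10 genes (CPM) in the 4 groups, where points are samples and bars are means ± SD of 3 samples, and each gene has its own axis. B6 CD8+ cells have the highest mean for 9 genes, and CD8.1 cells have the highest mean for *Klrg1*.

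The B6 lineages were compared to ask which receptors go with the cytotoxic lineage in unmodified mice. Genes of the CD94 and NKG2 receptors rose in B6 CD8+ cells relative to B6 CD4+ cells, the Ly49 genes were also higher there, and *Klrg1* fell. Of the 6 tested genes, 5 rose and 1 fell, in a comparison in which 23.1% of all tested genes were called (adjusted P under 0.05). All 10 genes passed the low-count filter, but only *Klrd1* was above its cutoff of 0.443 CPM in all 4 groups. The other 9 passed through the groups in which they were high, so no count of calls among them is read as support.

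From B6 CD4+ to B6 CD8+ cells, *Klrd1* rose by a log2 fold change of 3.91 (SE 0.166, 15.0-fold; adjusted *P* = 8.26e-11, edgeR quasi-likelihood test, Benjamini-Hochberg adjusted). *Klrc1* rose by 6.62 (SE 0.382, 98.3-fold; adjusted *P* = 2.59e-09, edgeR quasi-likelihood test, Benjamini-Hochberg adjusted). For *Klrc2*, which had 1 count in B6 CD4+ cells, the ratio of levels was 80.3 (95% exact counting interval 14.0 to 3209; adjusted *P* = 0.000111, edgeR quasi-likelihood test, Benjamini-Hochberg adjusted). B6 CD8+ replicate 2 held 52 of the 85 *Klrc2* counts of its group, so the size of this ratio rests largely on it. *Klrc2* passed the low-count filter through B6 CD8+ cells alone and had to differ. Neither its *P* nor its place among the genes that rose is therefore read as support. *Klrk1* rose by 4.35 (SE 0.521, 20.4-fold; adjusted *P* = 1.33e-05, edgeR quasi-likelihood test, Benjamini-Hochberg adjusted). In each of these, all 3 B6 CD8+ samples were above all 3 B6 CD4+ samples. B6 CD4+ replicate 3 held 12 of the 15 *Klrk1* counts and 3 of the 5 *Klrc1* counts of its group, and without it the values were 5.98 and 7.27. *Klrb1c* rose by 2.55 (SE 0.491, 5.84-fold, higher in 3 of 3 samples; adjusted *P* = 0.00114, edgeR quasi-likelihood test, Benjamini-Hochberg adjusted). *Klrg1* fell by 5.22 on the log2 scale (SE 0.567, 37.2-fold lower, lower in 3 of 3 samples; adjusted *P* = 4.82e-06, edgeR quasi-likelihood test, Benjamini-Hochberg adjusted).

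The Ly49 genes were not tested. Their levels were higher in the 3 B6 CD8+ samples than in any B6 CD4+ sample, a description of genes picked partly for their counts in these samples. *Klra6* was at least 60.3-fold higher, taking the floor of 3 counts per library for B6 CD4+ cells. The ratio of levels was 168 for *Klra13-ps* (95% exact counting interval 46.2 to 1394). Its 2 counts in B6 CD4+ cells came from replicate 3, without which there is no ratio. The log2 fold change was 5.77 (SE 0.601, 54.6-fold) for *Klra7* and 4.25 (SE 0.598, 19.05-fold) for *Klra8*. Without B6 CD4+ replicate 2, which held 3 of the 4 *Klra7* counts and 4 of the 5 *Klra8* counts of its group, these were 6.99 and 5.77.

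The lineages of CD8 Dual mice were compared to ask whether the same receptors go with the cytotoxic lineage when both lineages use CD8. *Klrd1*, *Klrc1*, *Klrk1* and *Klrb1c* rose in CD8.2 cells relative to CD8.1 cells and *Klrg1* fell, while *Klrc2* was at the floor in both groups. That is 4 of the 6 tested genes up and 1 down, in a comparison in which 28.7% of all tested genes were called. The chosen Ly49 genes were higher in every CD8.2 sample than in any CD8.1 sample, which is a description, since they were picked partly for such differences.

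*Klrd1* rose by a log2 fold change of 4.14 (SE 0.173, 17.7-fold, higher in 3 of 3 samples; adjusted *P* = 1.06e-10, edgeR quasi-likelihood test, Benjamini-Hochberg adjusted). *Klrc1* rose by 3.02 (SE 0.373, 8.12-fold, higher in 3 of 3 samples; adjusted *P* = 2.13e-05, edgeR quasi-likelihood test, Benjamini-Hochberg adjusted). *Klrk1* rose by 2.17 (SE 0.527, 4.50-fold, higher in 3 of 3 samples; adjusted *P* = 0.00623, edgeR quasi-likelihood test, Benjamini-Hochberg adjusted). *Klrc2* has no fold, since the CD8 Dual groups held 1 count each. *Klrg1* fell by 5.92 on the log2 scale (SE 0.430, 60.7-fold lower, lower in 3 of 3 samples; adjusted *P* = 5.42e-08, edgeR quasi-likelihood test, Benjamini-Hochberg adjusted). *Klrb1c* rose by 1.41 (SE 0.465, 2.65-fold, higher in 3 of 3 samples; adjusted *P* = 0.0339, edgeR quasi-likelihood test, Benjamini-Hochberg adjusted). Without CD8.1 replicate 2, which held 23 of the 36 *Klrb1c* counts and 7 of the 12 *Klrc1* counts of its group, *Klrb1c* rose by 2.23 and *Klrc1* by 3.64. The *Klrb1c* call held in 15 of 20 alternative settings, with adjusted *P* from 0.00304 to 0.112, and was lost without CD8.1 replicate 1 (1.17, adjusted *P* = 0.0803, edgeR quasi-likelihood test, Benjamini-Hochberg adjusted). It was lost as well without CD8.1 replicate 3 or CD8.2 replicate 1 or 2, and in a fit of these groups alone.

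For the Ly49 genes, *Klra6* was at least 5.86-fold, *Klra13-ps* at least 7.41-fold and *Klra8* at least 8.22-fold higher in CD8.2 than in CD8.1 cells, where all 3 had 0 counts and the floor of 3 counts per library was used. *Klra7* differed by a log2 fold change of 2.65 (SE 0.660, 6.26-fold). Without CD8.1 replicate 2, which held 4 of the 6 *Klra7* counts of its group, that value was 3.54.

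The change between lineages can differ between strains, which the interaction of strain and lineage tests (the CD8 Dual change minus the B6 change). The lineage difference in *Klrc1* was smaller in CD8 Dual mice. Of the 6 tested genes *Klrc1* alone was called, beside 1.87% of all tested genes. Its interaction was −3.60 (SE 0.689; adjusted *P* = 0.0101, edgeR quasi-likelihood test, Benjamini-Hochberg adjusted), from a change of 6.62 in B6 and 3.02 in CD8 Dual cells. *Klrc1* passed the low-count filter through the cytotoxic groups alone. Its helper groups held 5 (B6 CD4+) and 12 (CD8.1) counts, so this *P* is not read as support. The call held in 18 of 19 alternative settings, with adjusted *P* from 0.000164 to 0.128, and was lost without CD8.1 replicate 2, which held 7 of the 12 *Klrc1* counts of its group (−2.98, adjusted *P* = 0.128, edgeR quasi-likelihood test, Benjamini-Hochberg adjusted). Without B6 CD4+ replicate 3 it was −4.24. For *Klrd1* the interaction was 0.24 (SE 0.228), and without CD8.1 replicate 1 it was 0.58 and passed the test. For *Klrk1* it was −2.18 (SE 0.810; adjusted *P* = 0.251, edgeR quasi-likelihood test, Benjamini-Hochberg adjusted), and it passed in 2 of 19 alternative settings, with no low-count filter (−2.16) and without B6 CD4+ replicate 3 (−3.80). For *Klrb1c* it was −1.14 (SE 0.691) and for *Klrg1* −0.71 (SE 1.22), and neither passed. Without CD8.1 replicate 2 the *Klrb1c* changes lay closer together, at 2.55 in B6 and 2.23 in CD8 Dual cells. *Klrc2*, called between B6 lineages and not between CD8 Dual lineages, has no interaction value, and its test did not pass (adjusted *P* = 0.392, edgeR quasi-likelihood test, Benjamini-Hochberg adjusted).

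The cytotoxic groups of the strains were compared to ask how far CD8.2 cells match B6 CD8+ cells in these receptors. *Klrc1* and *Klrk1* fell in CD8.2 cells, and *Klrc2*, which also fell, was at the floor there. Of the 6 tested genes these 3 were called, beside 7.94% of all tested genes. *Klrc2* passed the low-count filter through B6 CD8+ cells alone and had to differ, so its call adds nothing. Of the other 5 genes 2 were called, and all 5 except *Klrd1* passed the filter through groups in which they were high. That count is therefore not read as support either. *Klra6*, *Klra7* and *Klra13-ps* were also lower in all 3 CD8.2 samples than in any B6 CD8+ sample, while *Klra8* and *Klrb1c* overlapped. For the Ly49 genes this describes the samples they were picked on and is no test. Fewer cells that carry a receptor and less of its RNA per cell cannot be told apart in these bulk samples.

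*Klrc1* fell by 2.31 on the log2 scale (SE 0.247, 4.96-fold lower, lower in 3 of 3 samples; adjusted *P* = 6.54e-05, edgeR quasi-likelihood test, Benjamini-Hochberg adjusted). *Klrc2*, with 1 count in CD8.2 cells, was lower by a ratio of 88.6 (95% exact counting interval 15.5 to 3539, lower in 3 of 3 samples; adjusted *P* = 0.000701, edgeR quasi-likelihood test, Benjamini-Hochberg adjusted). This ratio too rests largely on B6 CD8+ replicate 2. The 1 count came from CD8.2 replicate 3, and without that library CD8.2 cells had 0 counts and there is no ratio. Since *Klrc2* had to differ by the filter, its *P* is not read as support. *Klrk1* fell by 1.61 (SE 0.400, 3.04-fold lower, lower in 3 of 3 samples; adjusted *P* = 0.0241, edgeR quasi-likelihood test, Benjamini-Hochberg adjusted). The *Klrk1* call held in 14 of 19 alternative settings, with adjusted *P* from 3.12e-06 to 0.123, and was lost without CD8.2 replicate 3 (−1.69, adjusted *P* = 0.0846, edgeR quasi-likelihood test, Benjamini-Hochberg adjusted). It was lost as well without B6 CD8+ replicate 1 or 2 or CD8.2 replicate 1 or 2.

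*Klrd1* had a log2 fold change of −0.42 (SE 0.142) and did not pass the test (adjusted *P* = 0.0848, edgeR quasi-likelihood test, Benjamini-Hochberg adjusted), although all 3 CD8.2 samples were below all 3 B6 CD8+ samples. It passed in 5 of 19 alternative settings, with adjusted *P* from 0.000703 to 0.238, among them the fits without CD8.1 replicate 1 (−0.42, adjusted *P* = 0.00416, edgeR quasi-likelihood test, Benjamini-Hochberg adjusted) or without CD8.1 replicate 3. *Klrb1c* had a log2 fold change of −0.36 (SE 0.409) and *Klrg1* of 1.42 (SE 0.887), and neither passed.

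The 4 chosen Ly49 genes, picked partly on these samples, are described here and not tested. Among them *Klra6* differed most between the cytotoxic groups, with a log2 fold change of −3.25 (SE 0.298), 9.49-fold lower in CD8.2 cells. For *Klra7* it was −2.50 (SE 0.419, 5.66-fold lower), and −2.91 without CD8.2 replicate 3. For *Klra13-ps* it was −2.25 (SE 0.325, 4.75-fold lower). For *Klra8* it was −0.37 (SE 0.402), a difference within the spread of the samples.

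The helper groups of the strains were compared to ask how far CD8.1 cells match B6 CD4+ cells. *Klrg1* rose in CD8.1 cells and *Klrd1* fell, and the other 4 tested genes were few in counts and did not pass. These 2 of 6 stand beside 12.8% of all tested genes called. *Klrg1* rose by a log2 fold change of 2.13 (SE 0.303, 4.38-fold, higher in 3 of 3 samples; adjusted *P* = 0.000554, edgeR quasi-likelihood test, Benjamini-Hochberg adjusted). *Klrd1* fell by 0.65 on the log2 scale (SE 0.179, 1.57-fold lower, lower in 3 of 3 samples; adjusted *P* = 0.0272, edgeR quasi-likelihood test, Benjamini-Hochberg adjusted). The *Klrd1* call held in 14 of 19 alternative settings, with adjusted *P* from 2.21e-06 to 0.127, and the highest of these came from a fit of these groups alone. It was lost as well without B6 CD4+ replicate 1 or 2 or CD8.1 replicate 2 or 3, and without CD8.1 replicate 1 the change was −0.998. *Klrk1* had a log2 fold change of 0.57 (SE 0.699) and *Klrc1* of 1.29 (SE 0.637), and neither passed. With 1 sample left out they ranged from 0.015 to 2.19 and from 0.67 to 1.92, the highest of both without B6 CD4+ replicate 3, and passed in none of these fits. *Klrb1c* had 0.78 (SE 0.557), and −0.047 without CD8.1 replicate 2. *Klrc2* and the Ly49 genes have no fold here, since both groups were at or near the floor.

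The 14 *Klra* genes in the table were also summed, which is less affected by how reads were divided between copies. The sum was 21.2, 25.3 and 31.6 CPM in the B6 CD8+ samples and 8.34, 8.77 and 9.36 CPM in the CD8.2 samples. It was 0.273, 0.603 and 0.680 CPM in the B6 CD4+ samples and 0.954, 1.41 and 1.28 CPM in the CD8.1 samples. No groups overlapped, with B6 CD8+ highest (26.1 ± 5.24 CPM), then CD8.2 (8.82 ± 0.510), CD8.1 (1.22 ± 0.237) and B6 CD4+ (0.519 ± 0.216). B6 CD8+ cells had 2.95 times the summed level of CD8.2 cells.

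The make-up of that sum differed between the cytotoxic groups. *Klra6* made up 33.7%, 29.4% and 28.7% of *Klra* counts in the B6 CD8+ samples and 14.3%, 5.70% and 8.0997% in the CD8.2 samples. *Klra8* made up 5.01%, 5.45% and 6.38% in the B6 CD8+ samples and 13.3%, 13.9% and 11.8% in the CD8.2 samples. *Klra6* was thus the most counted *Klra* gene of B6 CD8+ cells and had a lower share in every CD8.2 sample, while *Klra8* had a higher share there. *Klra13-ps* made up 18.5%, 19.5% and 18.8% in the B6 CD8+ samples and 9.18%, 13.3% and 12.5% in the CD8.2 samples. *Klra7* made up 12.5%, 14.9% and 12.5% against 6.12%, 4.43% and 9.03%. The shares of both were lower in every CD8.2 sample. The most counted *Klra* gene of CD8.2 cells was *Klra3* (Ly49C), with 38.3%, 43.0% and 37.7%, against 13.1%, 10.2% and 14.0% in the B6 CD8+ samples. The counts behind a share set its precision: the 95% Wilson interval of the *Klra6* share was 29.8% to 37.9% in B6 CD8+ replicate 1 and 10.1% to 19.9% in CD8.2 replicate 1, and it is no test between groups.

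**Figure D3:**
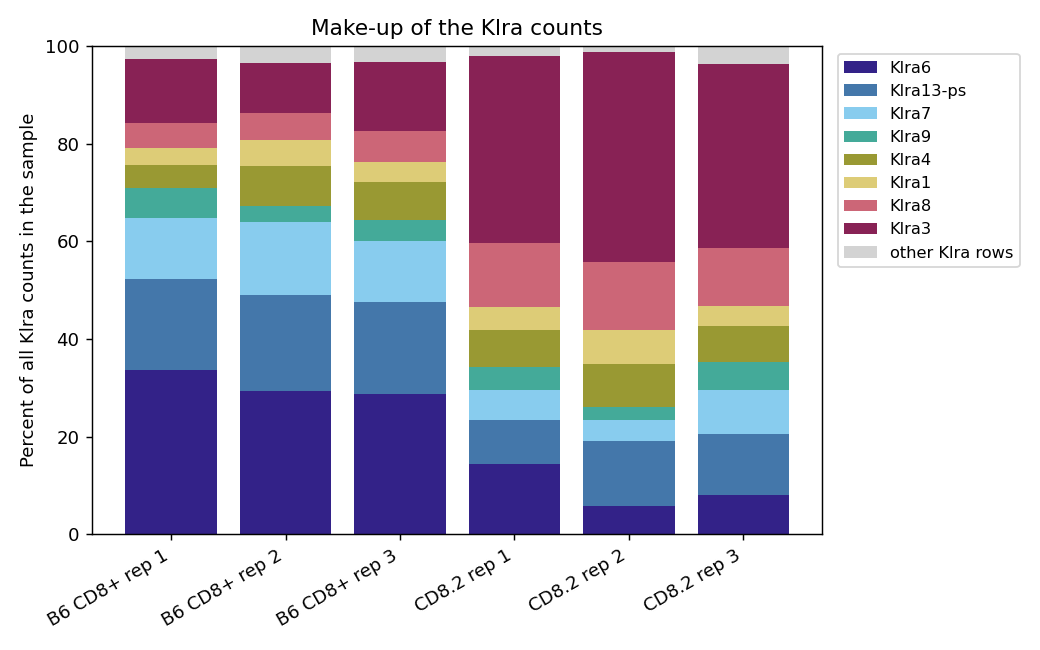
Share of each *Klra* gene in all *Klra* counts (percent) of each B6 CD8+ and CD8.2 sample, as stacked bars. *Klra6* is the leading gene in the B6 CD8+ samples and *Klra3* in the CD8.2 samples.

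*Klra3*, an inhibitory Ly49 outside the 10 genes, did not follow *Klra6* between strains. It measured 2.78, 2.58 and 4.42 CPM in the B6 CD8+ samples and 3.19, 3.78 and 3.53 CPM in the CD8.2 samples, which overlapped (log2 fold change 0.11, SE 0.295). *Klra3* also measured 0.334, 0.265 and 0.570 CPM in the CD8.1 samples, all above the B6 CD4+ samples, where it had 2 counts in all. *Klra1* measured 0.286, 0.796 and 0.475 CPM in the CD8.1 samples, again above the B6 CD4+ samples, which held 2 counts in all. In the CD8.2 samples *Klra1* measured 0.383, 0.611 and 0.379 CPM. It thus overlapped between CD8 Dual lineages, with the lower mean in CD8.2 cells (0.458 against 0.519 CPM). Of the 9 other *Klra* genes listed, 4 passed the low-count filter, namely *Klra1*, *Klra3*, *Klra4* and *Klra9*, and none was tested. Their median log2 fold change was 4.80 between B6 lineages and 3.003 between CD8 Dual lineages, with ratios standing in where counts were near 0. It was −1.36 between CD8.2 and B6 CD8+ cells, beside a median of 0.00 for all tested genes. Between CD8.1 and B6 CD4+ cells *Klra4* and *Klra9* overlapped, with 6 and 2 counts against 6 and 6, and have no value. The median there, 3.95, is thus of *Klra1* and *Klra3* alone, whose 2 counts each in B6 CD4+ cells came from replicate 1.

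The 250 bases before the start of *Klra6*, *Klra7* and *Klra8* are shown because these genes are close copies that differed in size of change between strains. They are printed 5′ to 3′ on the minus strand of GRCm38.p6 from RefSeq, at chr6:130026955-130027204 for *Klra6*, chr6:130233323-130233572 for *Klra7* and chr6:130129899-130130148 for *Klra8*. Capitals mark stretches of at least 12 bases that all 3 share, which come to 34 bases with a longest run of 20. Identity was 85.0% between *Klra6* and *Klra7*, 83.8% between *Klra6* and *Klra8*, and 81.6% between *Klra7* and *Klra8*, against 44.2% to 58.6% for the other pairs of genes with a sequence. *Klra7* and *Klra8* have 2 RefSeq starts each, and the window of one of them is shown.
Klra6: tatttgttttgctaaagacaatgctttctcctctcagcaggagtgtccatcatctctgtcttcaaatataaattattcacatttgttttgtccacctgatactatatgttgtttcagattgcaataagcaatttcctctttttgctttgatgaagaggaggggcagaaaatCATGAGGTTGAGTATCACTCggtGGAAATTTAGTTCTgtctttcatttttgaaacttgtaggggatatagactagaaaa
Klra7: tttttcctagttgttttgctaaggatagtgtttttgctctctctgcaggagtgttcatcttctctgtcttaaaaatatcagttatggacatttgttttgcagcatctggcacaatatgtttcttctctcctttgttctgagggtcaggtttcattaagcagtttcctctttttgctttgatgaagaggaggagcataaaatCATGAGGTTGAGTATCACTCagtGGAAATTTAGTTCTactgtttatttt
Klra8: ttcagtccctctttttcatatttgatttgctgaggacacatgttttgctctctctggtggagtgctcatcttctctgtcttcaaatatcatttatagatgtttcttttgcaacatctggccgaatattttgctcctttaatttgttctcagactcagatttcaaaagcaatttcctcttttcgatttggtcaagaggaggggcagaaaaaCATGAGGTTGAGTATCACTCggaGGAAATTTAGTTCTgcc

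RefSeq start windows of 300 bases, 250 before the start and 50 after it, were found for 7 of the 10 genes and not for *Klra13-ps*, *Klrd1* or *Klrg1*. They were searched on both strands for TGTGGT, the core letters bound by RUNX factors, and for AGGTGTG, letters bound by T-box factors. TGTGGT was found in *Klrk1*, *Klrc1* and *Klrb1c* at 1 place each and in *Klrc2* at 2 places, which is 4 of 7 genes. Of 32851 windows of all genes, 16.8% hold it. *Klra7*, *Klra8* and *Klrc2* have 2 windows each, so a share of genes and a share of windows are unlike measures. AGGTGTG, which 5.84% of windows hold, was found in 0 of 7, so the motifs do not overlap in these windows. A match describes letters and shows no binding. *Klrk1*, whose upstream bases overlap no annotated exon, is printed as an example, at chr6:129623865-129624114 on the minus strand, with TGTGGT in capitals.
Klrk1: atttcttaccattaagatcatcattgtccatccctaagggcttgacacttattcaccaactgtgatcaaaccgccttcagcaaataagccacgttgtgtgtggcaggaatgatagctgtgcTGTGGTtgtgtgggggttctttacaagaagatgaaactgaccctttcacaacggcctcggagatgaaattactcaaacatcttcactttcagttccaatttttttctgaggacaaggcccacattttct

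Receptors of this family act with adaptors and signalling proteins, of which 17 were listed and 16 tested. Between B6 lineages 2 rose and 2 fell, and between CD8 Dual lineages 2 rose and 3 fell. In CD8.2 relative to B6 CD8+ cells 1 rose and 1 fell, and between CD8.1 and B6 CD4+ cells 1 rose and 2 fell. These calls, 4, 5, 2 and 3 of 16, stand beside 23.1%, 28.7%, 7.94% and 12.8% of all tested genes, so they single out nothing about this list, and the calls of the lists below are to be read against the same shares (1.87% for the interaction). The median log2 fold changes of the adaptors were 0.09, −0.02, −0.09 and 0.01. *Tyrobp*, which encodes the adaptor DAP12 used by Ly49H and NKG2C, measured between 0.500 and 1.88 CPM in all 12 samples and was not called in any comparison. *Hcst*, which encodes DAP10, the adaptor of NKG2D, measured 147, 143 and 148 CPM in the CD8.2 samples and 118, 83.3 and 94.9 CPM in the CD8.1 samples. *Hcst* rose there by 0.56 (SE 0.110, higher in 3 of 3 samples; adjusted *P* = 0.00129, edgeR quasi-likelihood test, Benjamini-Hochberg adjusted).

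Of 15 listed ligand genes, 14 were in the table and 9 were tested. Between B6 lineages 3 rose, and between CD8 Dual lineages 5 rose. From B6 CD8+ to CD8.2 cells 1 rose, and between CD8.1 and B6 CD4+ cells 2 rose and 1 fell. Their median log2 fold changes were 0.13, 0.32, 0.18 and 0.17. *H2-T23*, which encodes the Qa-1 bound by CD94 dimers, was highest in CD8.2 cells at 444 ± 7.37 CPM, with 376 ± 10.4 CPM in CD8.1 cells, 396 ± 9.15 CPM in B6 CD8+ cells and 379 ± 29.4 CPM in B6 CD4+ cells. *Cdh1*, which encodes the KLRG1 ligand E-cadherin, was lowest in the group in which *Klrg1* was highest. It measured 6.34, 7.67 and 6.97 CPM in the B6 CD8+ samples and 5.40, 6.28 and 6.30 CPM in the CD8.2 samples. It measured 3.59, 1.16 and 0.893 CPM in the B6 CD4+ samples and 0.239, 0.309 and 0.332 CPM in the CD8.1 samples. *Cdh1* fell in CD8.1 relative to B6 CD4+ cells by 2.65 on the log2 scale (SE 0.499, lower in 3 of 3 samples; adjusted *P* = 0.00387, edgeR quasi-likelihood test, Benjamini-Hochberg adjusted). B6 CD4+ replicate 1 held 79 of the 127 *Cdh1* counts of its group, so the size of that change rests largely on it.

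Of 15 other lectin-like receptor genes listed, 14 were in the table and 5 were tested. Between B6 lineages 2 rose, and between CD8 Dual lineages 1 rose. Of the 5, 2 fell in CD8.2 relative to B6 CD8+ cells, and between CD8.1 and B6 CD4+ cells 1 rose and 1 fell. Their median log2 fold changes, with ratios standing in near 0, were 0.12, 0.56, −0.02 and 0.15. *Klre1*, a further receptor gene of the NK complex, differed between the cytotoxic groups in the direction of *Klrc1*. It measured 5.65, 6.98 and 7.84 CPM in the B6 CD8+ samples and 0.340, 0.555 and 0.408 CPM in the CD8.2 samples. *Klre1* fell by 3.98 on the log2 scale between these groups (SE 0.312, lower in 3 of 3 samples; adjusted *P* = 3.35e-06, edgeR quasi-likelihood test, Benjamini-Hochberg adjusted). It was also called in the interaction (adjusted *P* = 0.000193, edgeR quasi-likelihood test, Benjamini-Hochberg adjusted), with no value because B6 CD4+ cells held 2 counts. Only B6 CD8+ cells had all 3 samples above the low-count cutoff of 0.443 CPM, so *Klre1* passed the filter through them. Neither *P* of *Klre1* is therefore read as support.

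Of 20 regulators linked to expression of such receptors, 19 were tested. Between B6 lineages 5 rose and 8 fell, and between CD8 Dual lineages 3 rose and 8 fell. Between CD8.2 and B6 CD8+ cells 2 rose and 2 fell, and between CD8.1 and B6 CD4+ cells 4 rose and 2 fell. The interaction called 2, both down. Their median log2 fold changes were −0.23, −0.31, −0.08, 0.26 and −0.13. *Tbx21*, which encodes the T-box factor T-bet, measured 30.9, 30.6 and 37.4 CPM in the B6 CD8+ samples and 14.3, 13.8 and 15.4 CPM in the CD8.2 samples. It fell between these groups by 1.18 (SE 0.145, lower in 3 of 3 samples; adjusted *P* = 0.000236, edgeR quasi-likelihood test, Benjamini-Hochberg adjusted), next to the lower *Klrc1*, *Klrk1* and *Klra6* of CD8.2 cells. *Eomes*, which encodes a related T-box factor, overlapped between them (−0.14, SE 0.181). *Runx3* had a log2 fold change of −0.45 (SE 0.137) and did not pass (adjusted *P* = 0.0556, edgeR quasi-likelihood test, Benjamini-Hochberg adjusted). Whether any of these act on the receptor genes here was not tested.

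Markers of other lymph node cells, most of which the stated gates would leave out, were summed beside the receptors, and their part in the receptor levels was not tested. The 8 NK cell markers summed to 10.1, 12.2 and 18.3 CPM in the B6 CD8+ samples and 5.45, 6.22 and 4.40 CPM in the CD8.2 samples. They summed to 2.999, 3.40 and 4.93 CPM in the B6 CD4+ samples and 7.11, 8.13 and 6.69 CPM in the CD8.1 samples. On average over the 12 samples the most abundant was *Gzma*, whereas *Klre1* led in B6 CD8+ cells and *Itga2* in CD8.1 cells. The markers *Klre1*, *Klri2*, *Tyrobp* and *Fcer1g* are also in the receptor or adaptor lists, and the defining NK gene *Ncr1* was at most 0.345 CPM in any sample. The B6 CD8+ excess lies mainly in *Klre1*, the marker of the 5 tested that rose there between B6 lineages and fell in CD8.2 cells. Between CD8.1 and B6 CD4+ cells 3 rose, between CD8 Dual lineages 2 fell, and the interaction called 2, both down.

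The 11 memory and innate memory markers summed higher in the cytotoxic than in the helper group of either strain. They summed to 2024, 2131 and 2446 CPM in the B6 CD8+ samples and 1366, 1458 and 1428 CPM in the CD8.2 samples, and *Ly6c2* led on average over the 12 samples but not in every group. In the B6 CD4+ samples they summed to 143, 159.7 and 179 CPM and in the CD8.1 samples to 383, 397 and 352 CPM. Between B6 lineages 9 rose and 1 fell, and between CD8 Dual lineages 8 rose and 2 fell. Between CD8.2 and B6 CD8+ cells 6 fell, between CD8.1 and B6 CD4+ cells 7 rose, and the interaction called 7, all down, where 4.66%, 6.94% and 1.58% of all tested genes went the same way. *Eomes* and *Tbx21* are in this list and among the regulators.

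The 3 regulatory T cell markers were highest in CD8.1 cells, as *Klrg1* was. *Foxp3*, *Il2ra* and *Ctla4* summed to 233, 268 and 277 CPM in the CD8.1 samples and 66.4, 77.0 and 99.6 CPM in the B6 CD4+ samples. They summed to 2.33, 2.87 and 2.50 CPM in the B6 CD8+ samples and 5.83, 7.61 and 7.58 CPM in the CD8.2 samples. All 3 rose in CD8.1 relative to B6 CD4+ cells, and all 3 fell in the cytotoxic group of either strain. Between CD8.2 and B6 CD8+ cells 2 rose. *Foxp3*, the most abundant of them in both helper groups, rose in CD8.1 relative to B6 CD4+ cells by 1.87 (SE 0.174, higher in 3 of 3 samples; adjusted *P* = 1.18e-05, edgeR quasi-likelihood test, Benjamini-Hochberg adjusted), beside the 2.13 of *Klrg1*.

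B cell markers (4 genes, *Cd74* the most abundant) summed to 365, 389 and 254 CPM in the CD8.1 samples and 226, 252 and 114 CPM in the CD8.2 samples, with CD8.2 replicate 3 the lowest of its group. They summed to 176, 175 and 214 CPM in the B6 CD4+ samples and 117, 89.0 and 88.3 CPM in the B6 CD8+ samples. Between B6 lineages 4 fell, between CD8 Dual lineages 3 fell, between CD8.2 and B6 CD8+ cells 3 rose, and between CD8.1 and B6 CD4+ cells 2 rose. The 4 γδ T cell markers (*Trdc* the most abundant, *Sox13* at most 3 counts) summed to 16.1, 17.3 and 15.7 CPM in the CD8.1 samples and 12.1, 11.4 and 11.4 CPM in the B6 CD4+ samples. They summed to 8.92, 11.05 and 9.71 CPM in the B6 CD8+ samples and 9.57, 9.16 and 8.16 CPM in the CD8.2 samples. Of the 3 tested, 2 rose and 1 fell between B6 lineages, and 3 fell between CD8 Dual lineages. Between CD8.2 and B6 CD8+ cells 1 fell, between CD8.1 and B6 CD4+ cells 2 rose, and the interaction called 2, both down. The 3 NKT cell markers summed to 32.6 to 35.2 CPM in CD8.2, 34.1 to 37.8 in CD8.1, 24.0 to 25.5 in B6 CD8+ and 30.4 to 32.0 in B6 CD4+ samples, nearly all of it *Cd1d1*, the gene of the 3 that was tested. *Cd1d1* fell between B6 lineages and rose in CD8.2 relative to B6 CD8+ cells. *Zbtb16* and *Il4*, known from NKT cells, had 0 counts in B6 samples and reached 1.02 and 0.522 CPM in CD8.1 samples. The myeloid markers (3 of 4 in the table, *Cst3* the most abundant) summed to 78.6 to 101 CPM in CD8.2, 95.2 to 105 in CD8.1, 75.4 to 78.2 in B6 CD8+ and 64.5 to 79.7 in B6 CD4+ samples. All 3 rose in CD8.1 relative to B6 CD4+ cells, and 1 rose in CD8.2 relative to B6 CD8+ cells. The helper and cytotoxic marker lists followed the labels: all 3 helper markers fell and all 3 cytotoxic markers rose between lineages in either strain. From B6 CD4+ to CD8.1 cells 2 helper markers fell and 2 cytotoxic markers rose, from B6 CD8+ to CD8.2 cells 2 helper markers rose, and the interaction called 2 of each list.

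The genes whose pattern was most like that of a receptor were found by the root mean square difference of centred log2 levels over the 12 samples, among 690 candidates, and nothing follows from it about shared control. Nearest to *Klra6* were *Gas7* (0.373), *Wdr95* (0.547) and *Plac8* (0.693), and nearest to *Klrc1* were RP23-353K11.3 (0.489), *Gas7* (0.549) and *Eng* (0.575). *Klra6* and *Klrc1* thus share *Gas7* among their nearest genes. Nearest to *Klrd1* were *Plekha6* (0.375), *Chst11* (0.471) and *Lcn4* (0.482). Nearest to *Klrk1* were *Cd160* (0.635), *Nrp2* (0.683) and *Il18rap* (0.690), the last of which encodes a chain of the interleukin 18 receptor. Nearest to *Klrg1* were *Il1rl1* (0.659), which encodes the receptor of interleukin 33, *Chdh* (0.680) and *Penk* (0.681).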

How the data were processed

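The deposited values are raw counts per gene, which the authors made by aligning paired reads to mm10 with STAR and counting with RSEM. The annotation release, the use of strand and the treatment of reads that map to several genes are not given in the sources used here. RNA was made with the RNeasy Plus Mini kit, and libraries with the SMARTer Universal Low Input RNA kit, which were sequenced on an Illumina HiSeq. All 12 columns were matched to samples by name, with 0 left unmapped. Gene IDs were matched to GENCODE M21, 49326 of 49585, of which 43749 had the same version.

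Counts were scaled by TMM and filtered by filterByExpr (minimum count 10), which kept 13118 genes. The quasi-likelihood test of edgeR, with P adjusted by Benjamini-Hochberg over all tested genes, was run on 1 fit of the 4 groups (R 4.3.3, edgeR 4.0.16), with the common biological coefficient of variation at 11.2%, and a gene was called at an adjusted P under 0.05. The 5 comparisons were both lineage differences, both strain differences and their interaction. Limits after the study's, over 5-fold with a P under 0.05, were counted beside it, with the P taken as unadjusted because the study does not say which it was. Standard errors were the log2 fold change divided by the root of the F statistic. The main fit did not pair samples, and the labels do not say whether samples with the same replicate number belong together. By those numbers, replicates of B6 CD4+ and B6 CD8+ correlated across genes by 0.126, 0.138 and 0.257 after group means were removed.

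Alternatives were DESeq2 1.42.0 size factors, the DESeq2 Wald test, no low-count filter, a filter at a mean of 1 CPM, fits of only the groups compared, replicate blocks, all *Klra* genes summed before the fit, plain library totals for *Klra* levels, and leaving out each of the 12 samples. The pipeline was tested on simulated data, and the matching of columns to samples was checked. Intervals, sequences and plots were made with Python 3.11.15, scipy 1.17.1, Biopython 1.88 and matplotlib 3.10.9. The named genes are the 10 receptors, the listed genes, and, for each receptor with a mean of at least 5 CPM in a group and for *Klrk1*, the nearest genes by pattern among those in no list. The receptors and all lists were chosen with earlier results of these data known.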

Additional observations from a re-analysis of the deposited data

Results flagged for a closer look

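The lineage change in *Klrc1* was called as different between strains by a test of the difference itself. The interaction of strain and lineage was −3.60 on the log2 scale (SE 0.689; adjusted *P* = 0.0101, edgeR quasi-likelihood test, Benjamini-Hochberg adjusted). *Klrc1* was higher in all 3 cytotoxic samples than in all 3 helper samples of either strain, by 6.62 in B6 and 3.02 in CD8 Dual mice. Without CD8.1 replicate 2 the interaction was −2.98 and did not pass, and without B6 CD4+ replicate 3 it was −4.24 and passed. *Klrc1* passed the low-count filter through the cytotoxic groups alone. The helper groups held 5 (B6 CD4+) and 12 (CD8.1) counts, near the floor, so the size and *P* of the interaction are not read as support. The cause was not tested.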

How the results depend on the processing

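Each of the 12 samples was left out in turn and 8 other fits were run. Log2 fold changes were tallied for the 10 genes except *Klrc2*, which has none. Under these settings 578 stayed the same, 8 came to pass the threshold and 16 no longer passed. A further 4, of *Klra* genes, moved by more than the spread, and 1 reversed. For the tested genes other than *Klrc2*, staying the same means keeping direction and side of the threshold. For the 4 Ly49 genes, which were not tested, it means a value within the spread of the samples. The reversed value is that of *Klrb1c* between CD8.1 and B6 CD4+ cells, 0.78 with all samples, −0.047 without CD8.1 replicate 2 and at most 1.29 with another sample left out, none past the threshold; the cause was not tested.

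Under limits of over 5-fold and an unadjusted P under 0.05, genes counted were 431 against 3030 between B6 lineages, 435 against 3771 between CD8 Dual lineages, 76 against 1042 for CD8.2 and B6 CD8+, 80 against 1674 for CD8.1 and B6 CD4+, and 152 against 245 for the interaction. Receptor genes counted were then 3 against 5 between CD8 Dual lineages, 1 against 3 for CD8.2 and B6 CD8+, and 0 against 2 for CD8.1 and B6 CD4+. Without the low-count filter, 1593 genes were called for CD8.2 and B6 CD8+, and 620 genes with 2 receptor genes for the interaction. With only the groups compared, 2515 genes were called for CD8.2 and B6 CD8+, and 674 genes with 1 receptor gene for CD8.1 and B6 CD4+. The DESeq2 Wald test called 410 genes for the interaction. Why these counts moved was not tested.

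Leaving out 1 sample gave 2418 to 3748 genes and 6 to 6 receptor genes between B6 lineages, 2632 to 5013 and 4 to 5 between CD8 Dual lineages, 431 to 1913 and 2 to 4 for CD8.2 and B6 CD8+, 765 to 2958 and 1 to 2 for CD8.1 and B6 CD4+, and 165 to 1356 and 0 to 2 for the interaction. Without CD8.1 replicate 1 the last 3 counts were 1913, 2958 and 1356. For CD8.2 and B6 CD8+, B6 CD8+ replicates 1 and 2 (476 and 431) and CD8.2 replicates 1, 2 and 3 (554, 441 and 440) moved the count by over 1.5 times. For CD8.1 and B6 CD4+, B6 CD4+ replicates 1 and 2 (765 and 872) and CD8.1 replicate 2 (845) did so.

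CD8.1 and CD8.2 samples of the same replicate number correlated across genes by −0.00388, 0.0905 and 0.119. With a replicate block within each strain, 3194 and 4101 genes were called between lineages and 330 for the interaction, and with a replicate block shared by both strains 2873, 3587, 882, 1501 and 211, and the number of receptor genes called under either replicate block was 6, 5 and 1, with 3 and 2 in the strain comparisons of the shared block. Depth limits *Klrc1*, *Klrc2* and the 4 Ly49 genes in the helper groups and *Klrg1* in the cytotoxic groups, with at most 7 counts per library there.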
